A study of Mus musculus with 30 samples.

Results

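The cell cycle and replication genes described here are 36 named genes of the mouse cell division machinery. They were taken by symbol from a list. Each matched 1 of the 54232 gene identifiers in the count files, and all 36 passed the filter on low counts in every comparison. They fall into 5 roles. The first holds 8 G1 genes, the cyclins Ccnd1, Ccnd2, Ccnd3, Ccne1 and Ccne2, the kinases Cdk4 and Cdk2, and the transcription factor E2f1. The second holds 10 genes of origin licensing and DNA synthesis, Cdc6, Mcm2 to Mcm7, Pcna, Tyms and Rrm2. The other roles hold 18 genes of mitosis, namely 8 mitotic cyclins, kinases and their activator Foxm1, 4 genes of the spindle checkpoint and its ubiquitin ligase, and 6 genes of chromosomes and spindle including Mki67 and Top2a.

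RNA sequencing was done on 30 libraries of pancreatic islets from male wild-type C57BL/6N mice. Freshly isolated islets came from mice given vehicle for 6 weeks (5 libraries) or 18 weeks (6 libraries), or cadmium chloride at 1 mM for 6 weeks (4 libraries) or 18 weeks (5 libraries). Isolated islets of the same kind of mouse were also held in culture for 96 hours with vehicle (5 libraries) or 0.5 µM cadmium chloride (5 libraries). All 6 groups share the genotype, the sex and the density-gradient isolation, and the mice's age, the route of dosing and any pooling of animals were not given in the sources used here.

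In the textbook cell cycle, D cyclins with Cdk4 or Cdk6 release E2F factors from the Rb family in G1. E2F then drives genes of DNA synthesis, and the MuvB complex with B-Myb and Foxm1 drives the genes of G2 and mitosis. Adult beta cells, the main cell of the islet, divide rarely and use Ccnd2 and Cdk4 for the division they do. Endothelial cells, macrophages and fibroblasts of the islet can divide too. In bulk islets, fewer cells of a type and less RNA per cell cannot be told apart.

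The libraries of the 6 week groups held 49564350 to 58366797 counted reads, and those of the culture groups 24197072 to 26549350. At 18 weeks the totals ran from 9092759 to 51852364, with vehicle replicates 6 and 4 and cadmium replicate 5 the lowest. Transcripts of acinar markers, which come from exocrine tissue, took 0.223% to 1.53% of the reads with vehicle at 18 weeks, and with cadmium 1.41% to 16.8%. The share was 2.31% to 7.05% over both 6 week groups and at most 0.0125% in culture. The defining beta cell markers were present, with 12.6% to 24.6% of the reads in all 30 libraries. Levels are given as CPM, read counts scaled to the size of each library. Tests are edgeR's quasi-likelihood test with Benjamini-Hochberg adjustment over all genes tested, a gene rose or fell where the adjusted p was under 0.05, and errors after a log2 fold change are standard errors.

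The promoter windows printed here are those of mitotic, licensing and G1 genes whose levels are described next. RefSeq promoter windows (GRCm38.p6, 250 bases before to 50 after the start) matched 28 of the 36 members with 30 windows. Each window was searched on both strands for the CCAAT box (CCAAT), bound by NF-Y. It was also searched for the cell cycle homology region or CHR (TTTGAA or TTTAAA), bound by MuvB, and for E2F sites (TTTGGCGC, TTTCGCGC or TTCCCGCC). Capitals mark these matches, and adjoining capitals are matches that overlap. The mitotic genes Ccnb2 (chr9:70421505-70421804, - strand), Plk1 (chr7:122159185-122159484, + strand) and Mki67 (chr7:135716330-135716629, - strand) held CCAAT boxes and CHRs but no E2F site. The licensing genes Mcm5 (chr8:75109259-75109558, + strand) and Mcm6 (chr1:128359656-128359955, - strand) held E2F sites as well as CCAAT boxes, and Mcm5 also held a CHR. The G1 kinase gene Cdk4 (chr10:127063285-127063584, + strand) held none of the motifs.
Ccnb2: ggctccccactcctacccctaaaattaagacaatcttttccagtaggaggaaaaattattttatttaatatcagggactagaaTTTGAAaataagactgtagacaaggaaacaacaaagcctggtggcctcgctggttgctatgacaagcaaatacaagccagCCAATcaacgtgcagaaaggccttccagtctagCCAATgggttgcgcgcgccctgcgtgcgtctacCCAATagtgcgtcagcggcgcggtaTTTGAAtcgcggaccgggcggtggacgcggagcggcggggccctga
Plk1: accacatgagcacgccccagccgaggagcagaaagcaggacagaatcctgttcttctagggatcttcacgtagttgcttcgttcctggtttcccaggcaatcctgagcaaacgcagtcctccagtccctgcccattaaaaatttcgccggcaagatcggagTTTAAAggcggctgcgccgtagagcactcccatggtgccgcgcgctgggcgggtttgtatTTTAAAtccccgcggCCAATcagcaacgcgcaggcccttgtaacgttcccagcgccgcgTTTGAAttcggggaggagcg
Mki67: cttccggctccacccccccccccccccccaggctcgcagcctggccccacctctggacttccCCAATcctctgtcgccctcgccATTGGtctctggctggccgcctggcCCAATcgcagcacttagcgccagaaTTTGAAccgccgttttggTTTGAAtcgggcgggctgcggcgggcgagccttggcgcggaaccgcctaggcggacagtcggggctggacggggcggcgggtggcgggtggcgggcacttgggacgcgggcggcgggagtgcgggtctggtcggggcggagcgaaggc
Mcm5: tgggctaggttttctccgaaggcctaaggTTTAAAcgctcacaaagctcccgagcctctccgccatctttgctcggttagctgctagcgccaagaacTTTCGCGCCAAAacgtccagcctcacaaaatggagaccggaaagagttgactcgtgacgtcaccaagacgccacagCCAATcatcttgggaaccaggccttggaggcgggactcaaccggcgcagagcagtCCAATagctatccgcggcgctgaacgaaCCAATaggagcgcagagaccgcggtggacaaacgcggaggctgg
Mcm6: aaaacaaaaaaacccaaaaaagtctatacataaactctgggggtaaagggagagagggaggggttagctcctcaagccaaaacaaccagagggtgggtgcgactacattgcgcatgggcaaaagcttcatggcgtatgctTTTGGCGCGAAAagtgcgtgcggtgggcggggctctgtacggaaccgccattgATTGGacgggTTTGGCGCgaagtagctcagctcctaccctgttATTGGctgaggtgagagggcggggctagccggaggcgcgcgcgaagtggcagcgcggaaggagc
Cdk4: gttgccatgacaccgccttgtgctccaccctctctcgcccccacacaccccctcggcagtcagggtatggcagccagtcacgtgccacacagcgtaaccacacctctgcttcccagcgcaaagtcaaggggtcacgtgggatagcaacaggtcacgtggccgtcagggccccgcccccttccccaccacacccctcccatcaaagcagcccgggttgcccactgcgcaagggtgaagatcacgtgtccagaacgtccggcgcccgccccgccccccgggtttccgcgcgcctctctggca

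Of the 14 windows of mitotic members, 13 held a CCAAT box, 13 a CHR and 12 (85.7%) both, beside 37.4%, 27.6% and 10.7% of all 32851 RefSeq windows. Of the 10 windows of the licensing and synthesis role, 8 held a CCAAT box, 3 a CHR and 3 both. An E2F site lay in 4 of these 10 windows (40%), in 1 of the 14 mitotic windows and in 2.96% of all windows. Of the 6 windows of G1 members, 2 held a CCAAT box and none held both a CCAAT box and a CHR. The roles were not compared by a test, and a match is a stretch of letters and not a shown binding site.

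Per kilobase of exon, Ccnd2 (GRCm38 chr6:127125162-127152193, - strand) was the highest of the 36 in every group, at 137.9 RPKM in 6 week vehicle islets. Cdk4 (chr10:127063534-127067920, + strand) followed at 34.1 RPKM and Ccnd1 at 28.4 RPKM in the same libraries. The median member stood at 0.888 RPKM there and at 1.70 RPKM in cultured vehicle islets. The lowest level at 6 weeks was that of Ccnb1 (chr13:100778650-100786570, - strand), with 7 to 34 reads per vehicle library. The summed level of the 18 mitotic members was 48.9 ± 13.0 CPM (SD, n = 5) in 6 week vehicle islets, 46.5 ± 13.4 CPM (n = 6) at 18 weeks and 128 ± 9.48 CPM (n = 5) in culture. In 3 of the 4 fresh groups 1 library was the highest for most mitotic members. Vehicle replicate 4 at 6 weeks had the highest level of its group for 15 of the 18, cadmium replicate 3 at 6 weeks for 16, and cadmium replicate 2 at 18 weeks for 15. In vehicle islets at 18 weeks the highest levels were spread over 4 libraries, with at most 8 of the 18 in 1 of them (replicate 1).

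**Figure D1:**
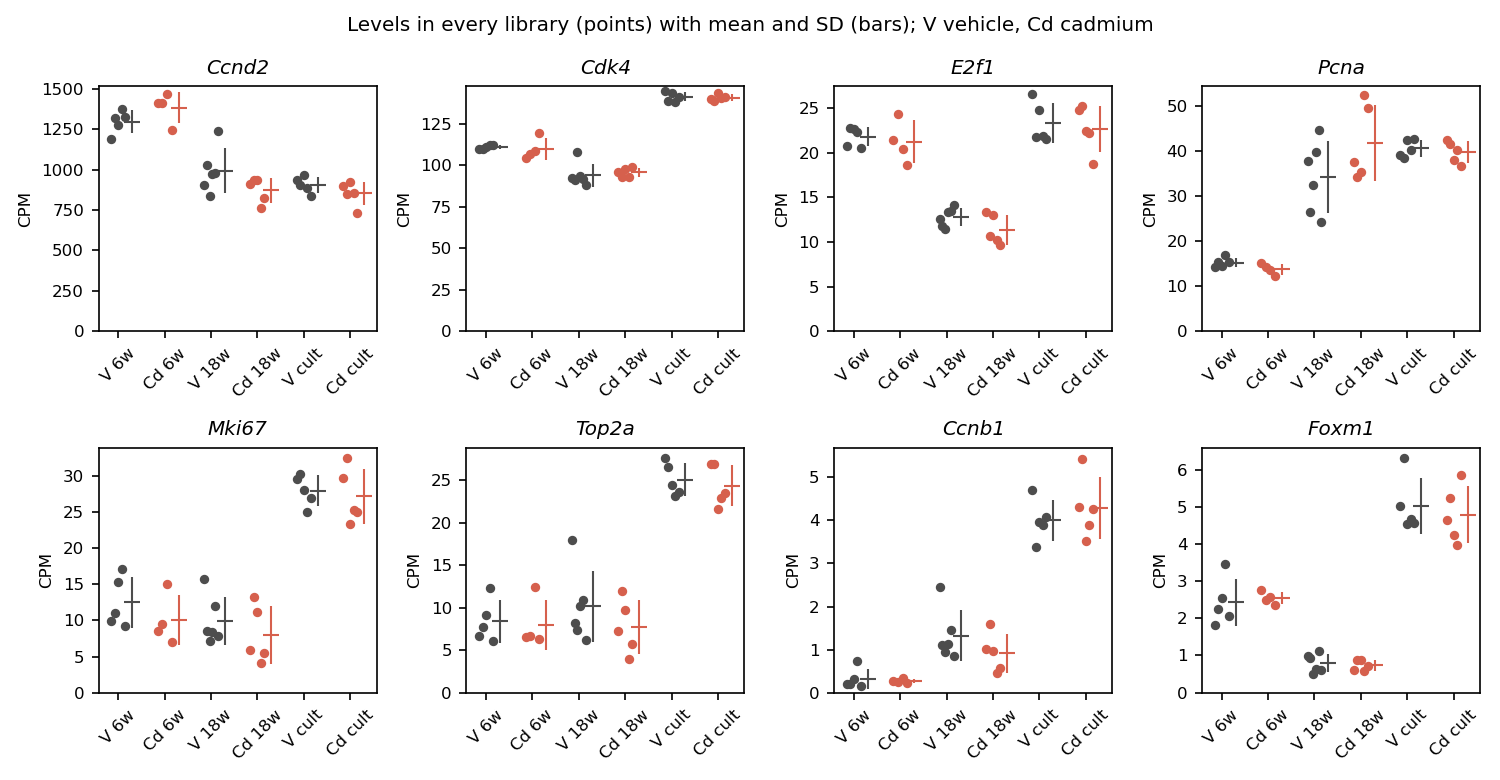
Levels in CPM (vertical axes, from 0) of 8 members in every library, with points for libraries and bars for the mean and SD of each group (horizontal axes, V vehicle and Cd cadmium). Cultured islets lie above fresh islets for Mki67, Top2a, Ccnb1 and Foxm1, with Mki67 at 24.9 to 30.3 CPM in cultured vehicle and 7.15 to 17.1 CPM in fresh vehicle libraries.

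The comparison of cultured with fresh vehicle islets bears on how isolated islets in a dish, where the ex vivo cadmium exposure was done, differ from islets taken straight from the mouse. Against 6 week vehicle islets, 29 members rose in culture, 3 fell and 4 did not pass the test. Against 18 week vehicle islets, 31 rose, 1 fell and 4 did not pass. All 18 mitotic members rose in both comparisons, while the D cyclins did not rise together. The background was large, since 67.8% of 17605 genes were called in the first comparison (33% higher and 34.8% lower) and 67.2% of 18449 in the second (30.6% higher and 36.6% lower). The median log2 fold change of the members was 1.08 and 0.90, and that of all genes tested was −0.0043 and −0.055. The comparisons share the 5 cultured libraries. Culture, time since isolation and sequencing depth differ together between these groups and cannot be told apart.

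The mitotic cyclins and kinases gave the widest range of changes. Ccnb1, the cyclin that activates Cdk1 at mitotic entry, was at 0.206, 0.190, 0.315, 0.731 and 0.150 CPM in 6 week vehicle libraries and at 4.71, 3.38, 3.96, 3.89 and 4.07 CPM in cultured vehicle libraries. At 18 weeks its vehicle libraries ranged from 0.855 to 2.46 with a median of 1.11 CPM, so the 3 vehicle groups did not overlap. Its log2 fold change in culture was 3.68 ± 0.32 (SE) with an adjusted p of 3.73e-07 against 6 weeks, the highest of the 36, and 1.49 ± 0.23 (SE) with an adjusted p of 3.45e-05 against 18 weeks. Ccnb2, the other B-type cyclin, stood at 0.973, 1.08, 0.748, 0.817 and 0.748 CPM at 6 weeks and at 3.05, 3.07, 4.13, 2.65 and 3.26 CPM in culture. Every cultured library lay above every fresh vehicle library, of which those at 18 weeks ranged from 0.244 to 1.82 with a median of 0.944 CPM. The change was 1.91 ± 0.16 (SE) with an adjusted p of 3.12e-07 against 6 weeks and 1.68 ± 0.25 (SE) with an adjusted p of 2.69e-05 against 18 weeks.

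Foxm1, the transcription factor of the G2 and mitosis genes, was at 1.83, 2.26, 2.56, 3.46 and 2.05 CPM in 6 week and 5.03, 6.31, 4.54, 4.67 and 4.56 CPM in cultured vehicle libraries. The 18 week vehicle libraries were the lowest, from 0.506 to 1.12 with a median of 0.781 CPM, and the 3 groups did not overlap. The log2 fold change in culture was 1.08 ± 0.17 (SE) with an adjusted p of 8.7e-05 against 6 weeks and 2.54 ± 0.19 (SE) with an adjusted p of 2.63e-08 against 18 weeks. Plk1, a kinase of mitotic entry and spindle assembly, followed the same order. Its levels were 0.673, 0.845, 1.06, 1.25 and 0.449 CPM at 6 weeks, 2.37, 2.89, 2.03, 2.09 and 2.21 CPM in culture and from 0.244 to 0.701 with a median of 0.349 CPM at 18 weeks. The cultured libraries lay above all others and the fresh groups overlapped, with changes in culture of 1.47 ± 0.23 (SE) with an adjusted p of 9.51e-05 against 6 weeks and 2.39 ± 0.24 (SE) with an adjusted p of 5.01e-07 against 18 weeks. The remaining members of this role, Ccna2, Cdk1, Aurka and Aurkb, rose by log2 values from 0.31 (Aurka, the centrosome kinase) to 1.59 (Cdk1) against 6 weeks and from 0.62 (Aurka) to 2.18 (Aurkb) against 18 weeks. The call of Aurka against 6 weeks was lost without vehicle replicate 1 or 5 at 6 weeks and without cultured replicate 1 or 5.

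All 4 genes of the spindle checkpoint and the anaphase-promoting complex rose in both comparisons. Bub1, a checkpoint kinase at the kinetochore, was at 0.468, 0.802, 0.866, 0.902 and 0.385 CPM in 6 week and at 2.77, 2.71, 2.69, 2.46 and 2.95 CPM in cultured vehicle libraries, a change of 2.01 ± 0.21 (SE) with an adjusted p of 2.7e-06. Ube2c, the ubiquitin-conjugating enzyme of the complex, was at 0.561, 1.10, 1.18, 1.42 and 0.556 CPM at 6 weeks and 4.31, 4.33, 3.69, 2.57 and 2.84 CPM in culture. Its 18 week libraries ranged from 0.366 to 0.917 with a median of 0.634 CPM, and the change in culture against them was 2.39 ± 0.22 (SE) with an adjusted p of 2.26e-07. For both genes the cultured libraries lay above all fresh vehicle libraries. Bub1b and Cdc20, the activator that the checkpoint holds back, rose by 1.31 and 1.66 against 6 weeks and by 1.10 and 1.996 against 18 weeks.

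The 6 genes of chromosomes and spindle rose by log2 values from 1.19 to 2.03 against 6 weeks and from 0.86 to 2.36 against 18 weeks. Mki67 (chr7:135689784-135716361, - strand), whose protein coats mitotic chromosomes and marks cycling cells, was at 9.88, 11, 15.4, 17.1 and 9.23 CPM in 6 week and 29.5, 30.3, 28.1, 24.9 and 26.9 CPM in cultured vehicle libraries. With 18 week libraries from 7.15 to 15.8 with a median of 8.46 CPM, cultured and fresh islets did not overlap. Its level was 2.28-fold higher than at 6 weeks (log2 1.19 ± 0.15 (SE) with an adjusted p of 1.38e-05) and 2.69-fold higher than at 18 weeks (log2 1.43 ± 0.17 (SE) with an adjusted p of 2.26e-06). Top2a, the topoisomerase that untangles replicated chromosomes, was at 6.72, 7.71, 9.15, 12.3 and 6.05 CPM at 6 weeks and 27.7, 26.5, 24.5, 23.1 and 23.7 CPM in culture. Its 18 week libraries ranged from 6.23 to 18.0 with a median of 9.19 CPM, below all cultured ones, and the changes were 1.61 ± 0.15 (SE) with an adjusted p of 1.02e-06 and 1.23 ± 0.20 (SE) with an adjusted p of 4.9e-05.

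Tpx2, which targets Aurka to the spindle, and Birc5, the survivin subunit of the chromosomal passenger complex, showed the same separation. Tpx2 stood at 1.46, 2.17, 2.24, 3.29 and 1.45 CPM at 6 weeks and 7.08, 8.56, 6.82, 5.95 and 7.26 CPM in culture, and its 18 week libraries ranged from 0.795 to 2.02 with a median of 1.08 CPM. Birc5 stood at 0.655, 0.655, 0.551, 1.05 and 0.342 CPM at 6 weeks and 2.95, 2.71, 2.41, 2.39 and 2.60 CPM in culture, and its 18 week libraries ranged from 0.244 to 0.774 with a median of 0.427 CPM. Against 18 weeks the changes were 2.31 ± 0.22 (SE) with an adjusted p of 3.1e-07 for Tpx2 and 2.36 ± 0.23 (SE) with an adjusted p of 4.04e-07 for Birc5. Over all 36 members, 27 had cultured libraries wholly above the fresh ones in each comparison, beside 24.1% and 24.9% of all genes, and 3 and 1 wholly below, beside 29.2% and 25.8%.

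**Figure D2:**
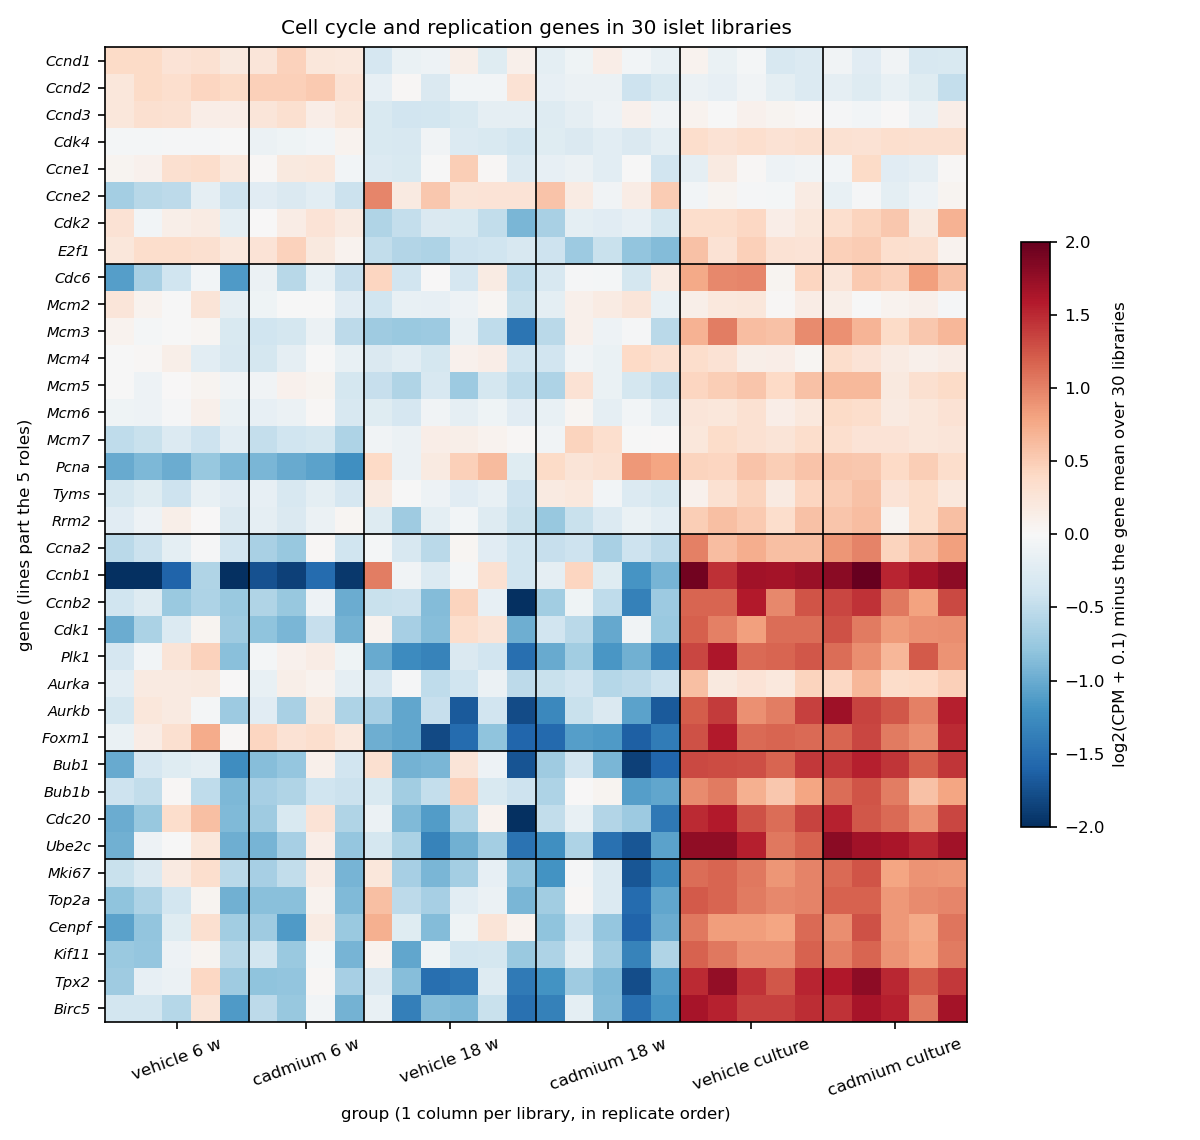
Each cell is log2(CPM + 0.1) of a member (vertical axis, grouped by role) in a library (horizontal axis, grouped by condition) minus the mean of that gene over the 30 libraries. The 10 cultured libraries are high for the 18 mitotic genes in the lower 3 blocks, whereas Ccnd1 and Ccnd2 in the top block are highest at 6 weeks, where Ccnd2 was 1187 to 1377 CPM in vehicle libraries.

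The genes of origin licensing and DNA synthesis rose less, with a median log2 fold change of 0.63 against 6 weeks and 0.37 against 18 weeks. In each comparison 9 of the 10 rose, Mcm2 being the exception in the first and Pcna in the second. Pcna (chr2:132249162-132253314, - strand), the sliding clamp of DNA polymerases, was at 14.1, 15.3, 14.4, 16.8 and 15.3 CPM in 6 week and 39.2, 38.4, 42.4, 40.3 and 42.6 CPM in cultured vehicle libraries. Its 18 week libraries ranged from 24.3 to 44.7 with a median of 35.2 CPM, which overlapped the cultured ones. The change in culture was 1.45 ± 0.05 (SE) with an adjusted p of 4.83e-11 against 6 weeks but 0.20 ± 0.13 (SE) with an adjusted p of 0.168 against 18 weeks. Mcm7, a subunit of the Mcm2-7 helicase, was at 9.69, 10.2, 11.4, 10.4 and 12.0 CPM at 6 weeks and 16.2, 18.0, 17.1, 16.6 and 17.8 CPM in culture. At 18 weeks it ranged from 12.8 to 15.3 with a median of 14.3 CPM, between both other groups, and it rose in culture by 0.70 ± 0.07 and 0.24 ± 0.07 (SE) with an adjusted p of 0.00563.

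Mcm5 and Mcm2 belong to the same helicase. Mcm5 was at 4.32, 4.05, 4.39, 4.51 and 4.15 CPM at 6 weeks and 5.89, 6.20, 6.44, 5.77 and 6.59 CPM in culture, and its 18 week libraries were lowest, from 2.59 to 3.47 with a median of 3.11 CPM. Its change in culture was 0.95 ± 0.11 (SE) with an adjusted p of 1.19e-06 against 18 weeks. Mcm2 was at 17.3, 15.3, 14.6, 17.5 and 13.0 CPM at 6 weeks, 15.9, 16.9, 17.2, 14.99 and 16.3 CPM in culture and from 10.8 to 15.2 with a median of 13.2 CPM at 18 weeks. The groups overlapped, and the change was 0.09 ± 0.08 (SE) with an adjusted p of 0.314 against 6 weeks and 0.30 ± 0.09 (SE) with an adjusted p of 0.00697 against 18 weeks. The helicase subunits thus differed among themselves, from 0.09 (Mcm2) to 0.87 (Mcm3) against 6 weeks, a spread that was not tested.

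The G1 genes split. Ccnd2, the D cyclin of rodent beta cells, was at 1187, 1321, 1279, 1377 and 1324 CPM in 6 week and 937, 904, 965, 888 and 839 CPM in cultured vehicle libraries, which did not overlap. At 18 weeks it ranged from 835 to 1240 with a median of 977 CPM, across the cultured levels. It fell by 0.49 ± 0.05 on the log2 scale against 6 weeks (adjusted p = 2.64e-06) and gave −0.17 ± 0.09 (SE) with an adjusted p of 0.116 against 18 weeks. Ccnd1 was at 141, 140.5, 131, 134 and 124 CPM at 6 weeks, 113, 98.3, 105, 86.3 and 89.2 CPM in culture and from 85.5 to 118 with a median of 99.4 CPM at 18 weeks. Its change was −0.42 ± 0.07 (SE) with an adjusted p of 0.00012 against 6 weeks, a fall, and −0.08 ± 0.09 (SE) with an adjusted p of 0.491 against 18 weeks. Ccnd3 was called in opposite directions, at −0.15 ± 0.05 (SE) with an adjusted p of 0.0142 against 6 weeks and 0.31 ± 0.06 (SE) with an adjusted p of 0.000373 against 18 weeks. Its levels were 28.7, 30.9, 30.3, 26.8 and 27.0 CPM at 6 weeks, 25.9, 24.4, 26.2, 25.6 and 25.0 CPM in culture and from 18.8 to 21.8 with a median of 19.9 CPM at 18 weeks, so the cultured libraries lay between the fresh groups.

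Cdk4, the partner kinase of the D cyclins, had closely spaced replicates and rose in both comparisons. It was at 109.8, 109.8, 111, 112 and 112 CPM at 6 weeks, 145, 139, 144, 138 and 141 CPM in culture and from 87.8 to 108 with a median of 91.8 CPM at 18 weeks, with no overlap between the 3 groups. The changes in culture were 0.38 ± 0.03 (SE) with an adjusted p of 9.54e-08 and 0.56 ± 0.06 (SE) with an adjusted p of 5.57e-07. E2f1, the transcription factor downstream of the D cyclins, was at 20.8, 22.8, 22.7, 22.4 and 20.5 CPM at 6 weeks, 26.7, 21.8, 24.8, 21.9 and 21.6 CPM in culture and from 11.5 to 14.2 with a median of 13.0 CPM at 18 weeks. The change in culture was 0.12 ± 0.06 (SE) with an adjusted p of 0.1 against 6 weeks, where the groups overlapped, and 0.84 ± 0.08 (SE) with an adjusted p of 2.43e-07 against 18 weeks, where they did not. Ccne2, a cyclin of the G1 to S step, was the other gene called in opposite directions, with 0.52 ± 0.09 and −0.47 ± 0.13.

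**Figure D3:**
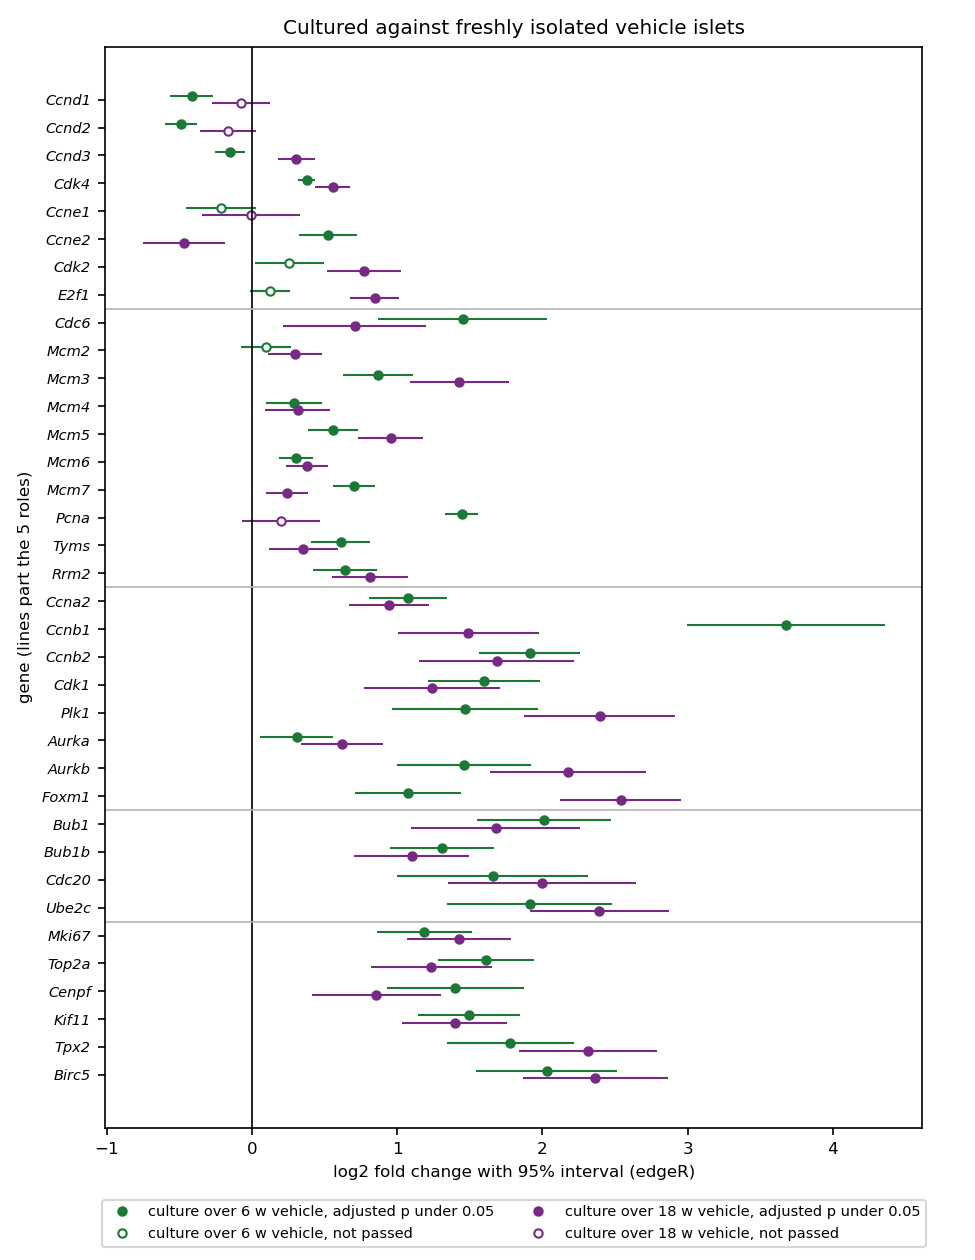
Log2 fold change (horizontal axis, with 95% intervals) of each member (vertical axis) in cultured over fresh vehicle islets, with filled points where the adjusted p was under 0.05. The 18 mitotic genes lie right of 0 in both comparisons, from 0.31 (Aurka) to 3.68 (Ccnb1) against 6 week islets, and the D cyclins lie at or left of 0 except Ccnd3 against 18 weeks at 0.31.

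Other genes of the pathway were counted from lists, 1 of which also holds 3 of the 36 members. Of 44 other mitosis genes tested, 42 rose and 2 fell in culture against 6 weeks, and 39 rose and 3 fell against 18 weeks. Cenpa, the histone that marks centromeres, rose by 1.92 ± 0.14 and 1.95 ± 0.17. Cks2, a small subunit of cyclin-dependent kinases, rose by 4.53 ± 0.26 against 6 weeks from 0.0863 to 2.01 CPM. This 6 week level of Cks2 is near the floor, below the lowest of Ccnb1, 0.150 CPM, which rests on 7 reads. Whether Cks2 shares transcript sequence with other genes was not examined. Spc25, a kinetochore gene, fell, from 266.9 CPM at 6 weeks and 212 CPM at 18 weeks to 101.5 CPM in culture (log2 −1.37 ± 0.13 and −1.10 ± 0.18). Its level is far above that of the other mitosis genes named here, and the gene lies next to G6pc2, a beta cell gene, on the opposite strand. Any part of this neighbour in the level or the fall of Spc25 was not tested. Of 32 other replication genes, 25 rose and 3 fell against 6 weeks, and 18 rose and 2 fell against 18 weeks. Uhrf1, which carries DNA methylation through replication, rose by 2.21 ± 0.17 and 2.25 ± 0.14. Pola1, the catalytic subunit of polymerase alpha, fell against 18 weeks by 0.72 ± 0.10 on the log2 scale.

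The list of the Rb family, other E2F and MuvB genes had 8 of 18 genes higher and 2 lower against 6 weeks, and 9 higher and 2 lower against 18 weeks. E2f8, a repressor of E2F targets, rose by 1.91 ± 0.15 and 3.52 ± 0.28. Of 7 CDK inhibitor genes, Cdkn1c fell in both comparisons, by 1.53 ± 0.27 and 1.28 ± 0.32 on the log2 scale, from 1.451 and 1.115 CPM to 0.492 CPM. Cdkn1a, which encodes the p53 target p21, rose against 18 weeks by 2.56 ± 0.18, from 7.31 to 43.8 CPM, and was at 38.7 CPM at 6 weeks. Among 16 known regulators of beta cell replication, which include the members Cdk4, Ccnd1 and Ccnd2, 3 rose and 10 fell against 6 weeks, and 5 rose and 3 fell against 18 weeks. Prlr, the prolactin receptor of the islet's growth in pregnancy, fell by 0.93 ± 0.07 and 0.48 ± 0.11.

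Markers of cell types moved with culture as well. Of 10 beta cell genes, 1 rose and 6 fell against 6 weeks and 4 rose and 5 fell against 18 weeks. Their median sums were 251700, 159500 and 141100 CPM at 6 weeks, at 18 weeks and in cultured vehicle islets. All 10 endothelial marker genes tested fell in both comparisons, from a median sum of 817 CPM at 6 weeks and 528 CPM at 18 weeks to 68.7 CPM in cultured vehicle islets. Of 10 stellate and fibroblast genes, 5 rose and 3 fell against 6 weeks and 7 rose and 1 fell against 18 weeks, with median sums of 471, 229.6 and 484 CPM at 6 weeks, at 18 weeks and in culture. Of 14 macrophage and MHC class II genes, 2 rose and 8 fell against 6 weeks and 8 rose and 4 fell against 18 weeks. Of 12 lymphocyte genes, 8 were tested against 6 weeks, of which 1 rose and 5 fell, and 4 against 18 weeks, of which 2 rose and 1 fell. Their median sums were 56.2, 18.8 and 16.7 CPM at 6 weeks, at 18 weeks and in cultured vehicle islets, where Cd3e, Cd3g, Cd8a and Ms4a1 were at 0 counts in all libraries. All 18 acinar genes fell against 6 weeks, and 16 of 17 tested fell and 1 rose against 18 weeks. All 5 erythroid genes fell in both comparisons. Among 5 alpha cell genes, 3 rose and 1 fell against 6 weeks, and 4 rose and 0 fell against 18 weeks. Among 6 Schwann cell genes, 3 rose and 1 fell against 6 weeks, and 5 rose and 1 fell against 18 weeks. The part of these cell types in the rise of the mitotic genes and the fall of Ccnd1 and Ccnd2 was not tested.

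Between 6 and 18 weeks on vehicle, the members did not move as a set. Foxm1, E2f1, Cdk4 and the 3 D cyclins fell, while Ccnb1, Pcna, Ccne2 and Mcm7 rose. In all, 4 members rose, 15 fell and 17 did not pass the test, beside 71.8% of 20551 genes called, 35.9% in each direction. The median log2 fold change of the members was −0.29, beside 0.00027 over all genes. Levels at 18 weeks did not overlap those at 6 weeks for 4 members that were higher and 7 that were lower, beside 28.2% and 25.1% of all genes. Sequencing depth was low in vehicle replicates 4 and 6 at 18 weeks, at 14751249 and 9092759 reads. The other vehicle libraries at 18 weeks held 41821402 to 51404595 reads. Without the libraries of lowest depth 14545 of 20493 genes were called. Length of treatment and any difference in the mice's age, which was not given, cannot be told apart.

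Foxm1 had the lowest value, −1.58 ± 0.23 (SE) with an adjusted p of 2.35e-05, from 2.43 ± 0.633 CPM (SD, n = 5) to 0.796 ± 0.246 CPM (n = 6). E2f1 followed the same direction at −0.82 ± 0.08 (SE) with an adjusted p of 1.82e-07. The D cyclins fell by similar amounts, −0.44 ± 0.09 for Ccnd1, −0.42 ± 0.10 for Ccnd2 and −0.55 ± 0.07 for Ccnd3, and Cdk4 gave −0.28 ± 0.06 (SE) with an adjusted p of 0.000528. The fall of Ccnd2 left overlapping groups, since 1 vehicle library at 18 weeks, at 1240 CPM, was above the lowest at 6 weeks, at 1187 CPM. Of the helicase subunits, Mcm2, Mcm3, Mcm5 and Mcm6 fell, with log2 values from −0.18 (Mcm6) to −0.66 (Mcm3). Plk1, Aurka, Aurkb and Tpx2 fell too, Plk1 by −1.03 ± 0.32 (SE) with an adjusted p of 0.00993. Of the 19 calls, 5 depended on the setting or on single libraries. Mcm6 lost its call in 17 of 18 alternatives, including the omission of any 1 of the 11 libraries. Tpx2 lost it in 12 and Mcm2 in 9, of which 7 and 5 left out 1 library. Aurkb lost it in 5 (3 of them without vehicle replicate 2 or 3 at 6 weeks or 2 at 18 weeks) and Aurka in 3 (2 of them without vehicle replicate 3 or 6 at 18 weeks). Mki67 and Top2a did not pass the test, at −0.35 ± 0.21 (SE) with an adjusted p of 0.143 and 0.26 ± 0.24 (SE) with an adjusted p of 0.337.

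The 4 that rose were Ccnb1 at 2.06 ± 0.40 (SE) with an adjusted p of 0.000281, Pcna at 1.14 ± 0.13 (SE) with an adjusted p of 1.87e-06, Ccne2 at 0.89 ± 0.14 (SE) with an adjusted p of 5.05e-05 and Mcm7 at 0.36 ± 0.08 (SE) with an adjusted p of 0.00126. Ccne2 was at 5.97, 6.53, 6.69, 8.47 and 7.20 CPM at 6 weeks, from 10.96 to 19.2 with a median of 11.7 CPM at 18 weeks and 9.30, 10.1, 9.50, 9.40 and 10.8 CPM in culture. Its 18 week libraries were thus the highest of the 3 vehicle groups and above every 6 week library. For Pcna and Ccnb1, too, each 18 week vehicle library was above each at 6 weeks, while Ccnb2 and Cdk1, which act with Ccnb1 or beside it, gave 0.13 ± 0.29 (SE) with an adjusted p of 0.699 and 0.25 ± 0.27 (SE) with an adjusted p of 0.422.

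These 4 genes share transcript sequence with other genes. Of all 50-base stretches of their annotated transcripts (GENCODE M21, both strands), 23.4% for Ccnb1, 19.1% for Pcna, 14.4% for Ccne2 and 23.3% for Mcm7 also occur in transcripts of another gene. For Ccnb1 these are the copies Ccnb1-ps, Gm12856 and Gm8416, for Pcna the copy Pcna-ps2, for Ccne2 the gene Ints8 on the opposite strand, and for Mcm7 the copy Gm5487 and the overlapping Ap4m1. A share of 10% or more was found for 10 members, of which 4 rose and 3 fell, and a lower share for the other 26, of which none rose and 12 fell. The level of 10% was chosen after the values were seen, so this split is a description and no test. Sharing was measured for the 36 members only, with no share over all genes to set beside it. The Ccnb1 copies had at most 1 read in any vehicle library, and Pcna-ps2 a mean of 0.159 CPM at 6 weeks and 0.180 CPM at 18 weeks. The overlapping genes were higher, with Ints8 at means of 46.9 and 51.0 CPM and Ap4m1 at 18.6 and 10.96 CPM at 6 and 18 weeks, and Gm5487 was at 0.0783 and 0.0244 CPM. Whether the counting was stranded was not given in the sources used here, so the levels of these genes are uncertain, in culture too. In culture against 6 weeks, 9 of the 10 members with larger shares rose and 1 fell, beside 20 and 2 of the other 26. Against 18 weeks, 7 of the 10 rose and 1 fell, beside 24 and 0 of the other 26. The part of shared sequence in these changes was not tested.

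**Figure D4:**
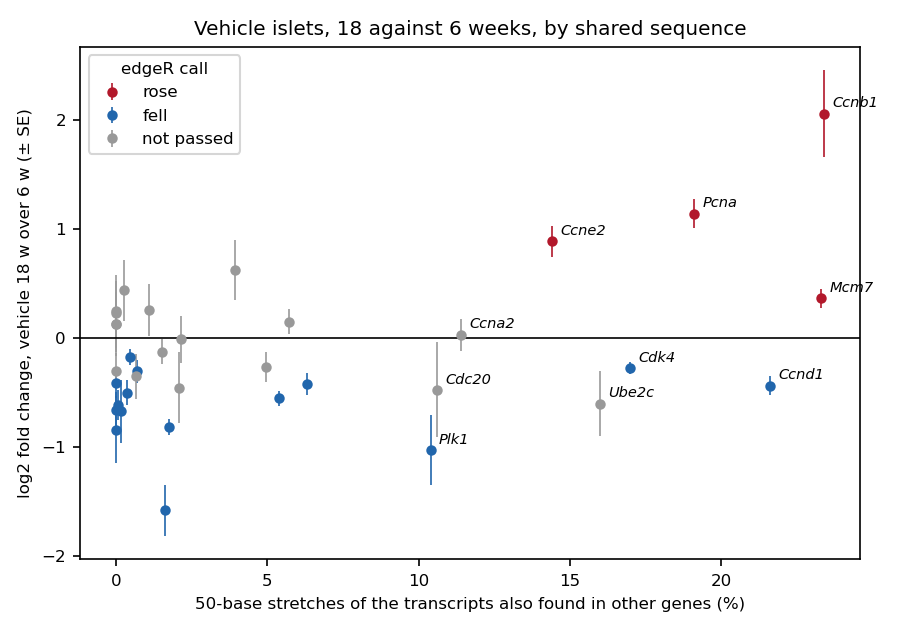
Log2 fold change in vehicle islets at 18 over 6 weeks (vertical axis, bars are the SE) against the percent of 50-base transcript stretches found in other genes (horizontal axis), 1 point per member, coloured by the edgeR call. The 4 members that rose lie at 14.4% or more, and all other calls are falls, of which Ccnd1 at 21.6%, Cdk4 at 17% and Plk1 at 10.4% also share sequence.

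The pathway lists were mixed between 6 and 18 weeks. Of 44 other mitosis genes 7 rose and 10 fell, and of 32 other replication genes 9 rose and 5 fell. Cks2 rose by 3.05 ± 0.31, from its 6 week level near the floor, and Pola1 by 0.87 ± 0.10. Ncapd2, a condensin subunit, fell by 0.62 ± 0.07 and Cdt1, a licensing factor, by 1.18 ± 0.21 on the log2 scale. E2f4 fell by 1.57 ± 0.08 and Tfdp1, a dimer partner of E2F, rose by 0.54 ± 0.06 in a list where 3 of 18 rose and 8 fell. Cdkn1a fell by 2.46 ± 0.24, from 38.7 to 7.31 CPM, and Cdkn2d by 0.72 ± 0.10, the 2 calls among 7 CDK inhibitors. Of 16 regulators of beta cell replication, 1 rose (Skp2, 0.53 ± 0.14) and 11 fell, with Foxo1 falling by 1.81 ± 0.07 and Men1 by 0.88 ± 0.09. Of 10 beta cell genes 1 rose and 5 fell, with median sums of 251700 CPM at 6 weeks and 159500 CPM at 18 weeks. Among markers of other cells, 14 of 14 macrophage, 9 of 10 stellate, 18 of 18 acinar, 7 of 10 endothelial and 6 of 8 lymphocyte genes tested fell in the same comparison. Erythroid markers went the other way, with 3 of 5 rising, none falling and a median sum of 15.2 CPM at 6 weeks and 36.9 CPM at 18 weeks. The part of these cell types was not tested.

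Cadmium was compared with vehicle in each setting to ask whether exposure changed the islet transcriptome. None of the 36 members passed the test at 6 weeks, at 18 weeks or in culture. The background was 0% of 18080 genes at 6 weeks, 0.359% of 20911 at 18 weeks and 0.00597% of 16743 in culture, so edgeR called few or no genes of any kind. At an unadjusted p under 0.05 there were 1 member at 6 weeks (5.11% of all genes), 3 at 18 weeks (18.2%) and 1 in culture (5.49%). No member had cadmium and vehicle libraries that did not overlap in any setting, beside 1.54%, 1.53% and 0.83% of all genes. DESeq2 called no member at 6 weeks (0.0553% of all genes) or in culture (0.00597%) and 1 at 18 weeks, where the adjusted p of 1 member was missing.

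At 6 weeks, 9 of the 36 members were above 0 and 27 below, with a median log2 value of −0.10, beside 49.3% of all genes above 0 and a median of −0.0019. With 1 library left out the members' median ranged from −0.16 (without cadmium replicate 3) to −0.022 (without vehicle replicate 4), and it was −0.044, −0.048 and −0.042 without vehicle replicate 3, cadmium replicate 1 and cadmium replicate 4. The 4 of smallest p were Mcm3, Pcna, Mcm2 and Ccne2. Mcm3, a helicase subunit, was at 4.40, 4.10, 4.19, 4.30 and 3.38 CPM in vehicle and 3.15, 3.27, 3.88 and 2.90 CPM in cadmium libraries, which overlapped, a difference of −0.31 ± 0.12 (SE) with an adjusted p of 0.919. Pcna was at 15.1, 14.2, 13.6 and 12.2 CPM in cadmium libraries (−0.15 ± 0.08 (SE) with an adjusted p of 0.919), and Mcm2 at 13.9, 14.7, 14.6 and 12.5 CPM (−0.17 ± 0.09 (SE) with an adjusted p of 0.919). Ccne2 was at 8.21, 7.85, 8.32 and 7.10 CPM, with 3 of the 4 above 4 of the 5 vehicle libraries, at 0.17 ± 0.11 (SE) with an adjusted p of 0.919. Cadmium levels of Ccnd2 were 1410, 1413, 1468 and 1244 CPM, a difference of 0.09 ± 0.06, and the 95% intervals were −0.16 to 0.11 for Ccnd1, −0.12 to 0.12 for Ccnd3 and −0.11 to 0.07 for Cdk4.

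Mki67 at 6 weeks was at 8.51, 9.56, 14.98 and 7.04 CPM in cadmium libraries, a difference of −0.32 ± 0.24 (SE) with an adjusted p of 0.919 and a 95% interval of −0.86 to 0.21. Top2a was at 6.57, 6.62, 12.4 and 6.34 CPM, at −0.07 ± 0.25 (SE) with an adjusted p of 0.982. In both genes cadmium replicate 3 was the highest of its group and vehicle replicate 4 the highest of the other. Without vehicle replicate 4, 9 of the 18 mitotic members were below 0, beside 15 of 18 with it, and their median was −0.0013 in place of −0.11. Without cadmium replicate 3 the median was −0.35 and 16 were below 0.

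At 18 weeks, 17 of the 18 mitotic members were below 0, with a median of −0.27, and 8 of the 10 licensing and synthesis members were above it, with a median of 0.17, beside 50% of all genes above 0. The licensing median ranged from 0.076 (without cadmium replicate 2) to 0.24 across the alternatives, with 7 to 9 above 0. No member passed the test. Cenpf, a kinetochore and centromere protein gene, had the smallest p. It ranged from 2.58 to 7.82 with a median of 4.75 CPM in vehicle libraries and was at 2.68, 3.75, 2.75, 1.499 and 2.35 CPM in cadmium libraries, a difference of −0.91 ± 0.27 (SE) with an adjusted p of 0.144. The groups overlapped through 1 vehicle library, at 2.58 CPM, and the other 5 lay above every cadmium library. DESeq2, which called 3.6% of all genes here, gave Cenpf −0.92 ± 0.27 with an adjusted p of 0.0266. With the spread estimated from all 30 libraries, edgeR called 11% of all genes and 3 members, Cenpf lower and Ccnd3 and Mcm3 higher.

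Ccnd3 was at 20.5, 21.7, 22.9, 26.1 and 23.4 CPM in cadmium libraries at 18 weeks, at 0.19 ± 0.08 (SE) with an adjusted p of 0.228. Mcm3 was at 2.87, 4.54, 3.90, 4.12 and 2.86 CPM, beside vehicle libraries from 1.47 to 3.79 with a median of 2.52 CPM, at 0.48 ± 0.20 (SE) with an adjusted p of 0.234. Mcm2 was at 12.8, 15.7, 16.5, 17.4 and 13.2 CPM, at 0.23 ± 0.11 (SE) with an adjusted p of 0.285. In these 3 genes the cadmium libraries were mostly in the upper part of the vehicle range or above it. The differences and 95% intervals were 0.03 (−0.18 to 0.24) for Ccnd1, −0.18 (−0.43 to 0.06) for Ccnd2, 0.03 (−0.10 to 0.17) for Cdk4 and 0.28 (−0.06 to 0.63) for Pcna.

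Mki67 was at 5.86, 13.3, 11.2, 4.07 and 5.54 CPM in cadmium libraries at 18 weeks (−0.31 ± 0.30 (SE) with an adjusted p of 0.584) and Top2a at 7.29, 12.0, 9.78, 4.01 and 5.68 CPM (−0.39 ± 0.29 (SE) with an adjusted p of 0.47). Replicate 2 was the highest and replicate 4 the lowest of the group in both. Cadmium replicate 4 was the lowest of its group for 12 of the 18 mitotic members and had the largest acinar share, 16.8%, while replicate 2 had the smallest, 1.41%. Replicates 1, 3 and 5 had acinar shares of 3.07%, 8.13% and 5.61%. Their summed mitotic levels were 33.7, 41.95 and 29.25 CPM, so replicate 3 was above replicates 1 and 5 in both. Of the 18 acinar markers, 15 rose with cadmium at 18 weeks, from a median sum of 6177 to 56810 CPM. With the acinar markers left out of the counts the mitotic median was −0.27, without cadmium replicate 4 it was −0.15 with 16 of 18 below 0, and without replicate 2 it was −0.43. Across the alternatives tried, 15 to 18 of the 18 were below 0. The part of acinar tissue in these values was not tested.

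In culture with 0.5 µM cadmium, 15 members were above 0 and 21 below, with a median log2 value of −0.026, beside 48.8% of all genes above 0. Plk1 had the smallest p and was at 2.37, 2.89, 2.03, 2.09 and 2.21 CPM in vehicle and 2.02, 1.76, 1.44, 2.19 and 1.71 CPM in cadmium libraries, which overlapped (−0.34 ± 0.15 (SE) with an adjusted p of 0.888). Mcm2 was at 15.9, 14.5, 15.4, 15.7 and 14.5 CPM in cadmium libraries (−0.09 ± 0.05 (SE) with an adjusted p of 0.895), and Ccnd2 at 901, 848, 922, 857 and 734 CPM (−0.08 ± 0.06 (SE) with an adjusted p of 0.906). Cdk2, the partner of E and A cyclins, was at 5.14, 5.18, 5.41, 4.41 and 4.74 CPM in vehicle and 5.12, 5.53, 5.91, 4.64 and 6.60 CPM in cadmium libraries (0.16 ± 0.10 (SE) with an adjusted p of 0.904). None of the 4 separated the groups.

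The summed level of the 18 mitotic members was 127 ± 13.9 CPM (SD, n = 5) in cultured cadmium islets. In fresh cadmium islets it was 43.8 ± 11.8 CPM (n = 4) at 6 weeks and 36.3 ± 10.9 CPM (n = 5) at 18 weeks. Cultured and fresh cadmium islets were not compared by a test. Mki67 was at 29.7, 32.5, 23.4, 25.3 and 25.0 CPM in cultured cadmium libraries. The 95% interval of the cadmium difference was −0.21 to 0.14 for Mki67, −0.19 to 0.11 for Top2a and −0.13 to 0.08 for Pcna. For the G1 genes it was −0.20 to 0.09 for Ccnd1, −0.16 to 0.05 for Ccnd3 and −0.06 to 0.06 for Cdk4. A p that misses the threshold does not show that the groups were alike, and the intervals give the sizes of change these libraries leave possible.

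**Figure D5:**
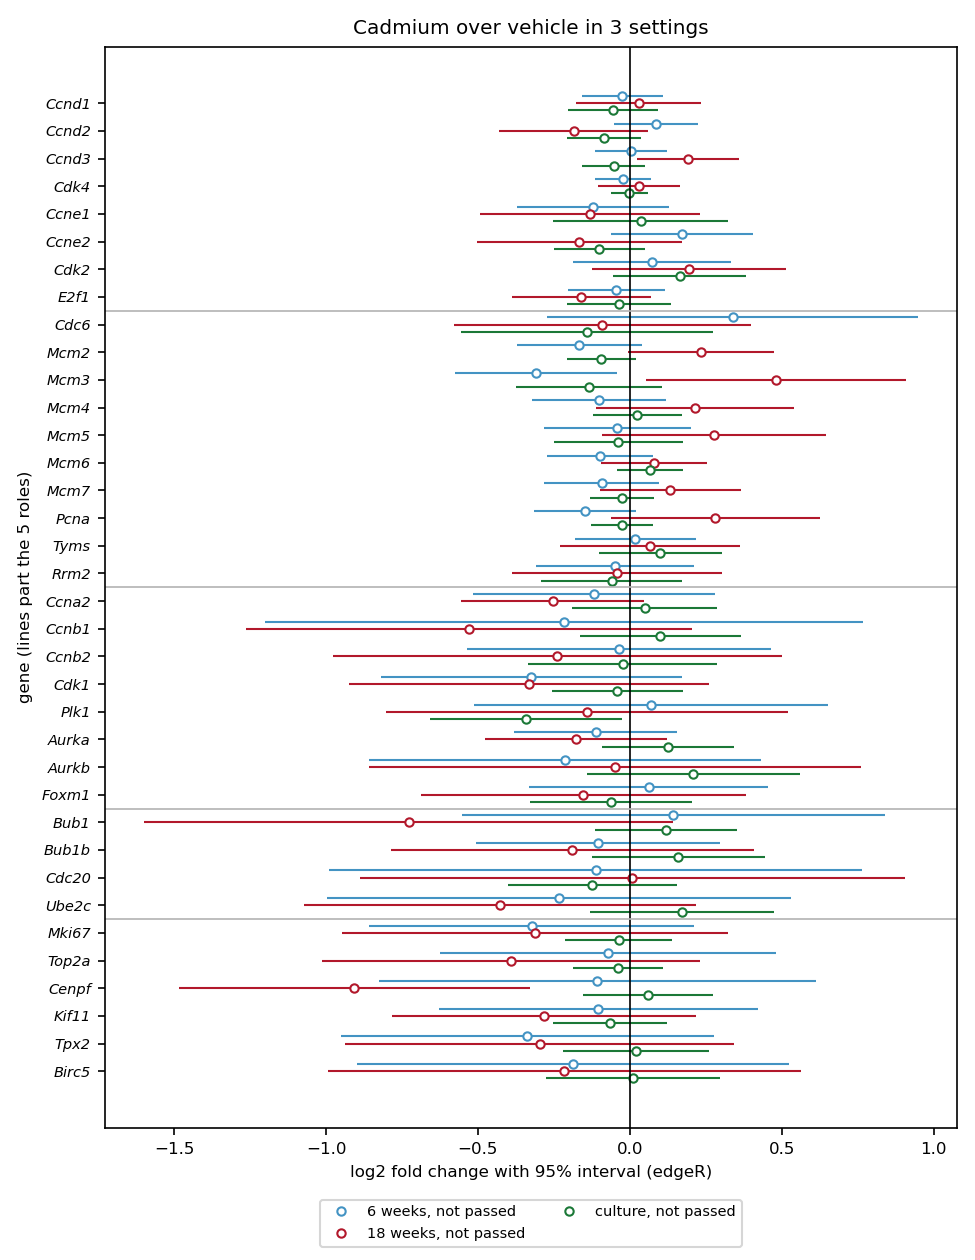
Log2 fold change of cadmium over vehicle (horizontal axis, with 95% intervals) for each member (vertical axis) at 6 weeks, 18 weeks and in culture, with open points since none had an adjusted p under 0.05. At 18 weeks most mitotic genes lie left of 0, with Cenpf furthest at −0.91, and most licensing genes right of it, with Mcm3 at 0.48.

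The effect of cadmium was also compared between settings in 1 fit over all 30 libraries. No member passed the test for the difference between 18 and 6 weeks, beside 1.68% of 22721 genes, and 6 had an unadjusted p under 0.05 (21.3% of all genes). The smallest p was that of Mcm3, whose values at 6 and 18 weeks lay on either side of 0 and differed by 0.78 ± 0.22 (SE) with an adjusted p of 0.0582. Mcm2, Ccnd2 and Pcna followed at 0.39 ± 0.13, −0.28 ± 0.12 and 0.41 ± 0.18, with adjusted p of 0.0929 to 0.177. DESeq2 called 1 member in this comparison, Mcm3, beside 5.98% of all genes. Between culture and 6 weeks no member passed with edgeR (0% of genes called) or DESeq2 (0.0088%), and 0 had an unadjusted p under 0.05 (3.34% of genes). Between culture and 18 weeks none passed with edgeR (0.0176%) or DESeq2 (0.709%, with the adjusted p of 4 members missing), and 4 had an unadjusted p under 0.05 (13.2%). Mcm3 had the smallest p there, at −0.61 ± 0.21 (SE) with an adjusted p of 0.225.

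None of the 115 to 117 genes tested from the pathway lists passed edgeR's cadmium test in any setting. At an unadjusted p under 0.05 there were 4 of 115 at 6 weeks, 18 of 116 at 18 weeks and 3 of 117 in culture. The shares of all genes were 5.11%, 18.2% and 5.49%. The gene of smallest p in each of the 5 lists was named. At 6 weeks these were the CDK inhibitor Cdkn2b (0.31 ± 0.09), E2f6 (−0.07 ± 0.04), Cdt1 (−0.36 ± 0.15), Sgo1 (0.39 ± 0.17) and Ezh2 (−0.24 ± 0.10), all with adjusted p of 0.92. At 18 weeks, in the same order of lists, they were Cdkn1c (0.47 ± 0.27), Rb1 (−0.29 ± 0.10), Rfc2 (0.27 ± 0.07), Cdc25c (−1.503 ± 0.45) and Cdk6 (0.82 ± 0.25). In culture, again 1 per list, they were Cdkn1a (0.10 ± 0.05), Rbl1 (−0.14 ± 0.06), Rfc5 (−0.19 ± 0.07), Ncapd2 (−0.10 ± 0.05) and Prlr (−0.12 ± 0.04). Of the other mitosis genes, 9 of 42 were above 0 at 6 weeks (median −0.086), 9 of 44 at 18 weeks (median −0.18) and 24 of 44 in culture (median 0.0037), beside 49.3%, 50% and 48.8% of all genes. Of 32 other replication genes, 11, 20 and 12 were above 0, with medians of −0.057, 0.024 and −0.031.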

How the data were processed

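The deposited files give whole-number counts of reads per Ensembl gene for each of the 30 libraries. The authors made them with cutadapt 1.13, STAR and HTSeq 0.6.1p1 on the mm10 genome, per the submitters' processing notes, which also name DESeq2. The annotation and the strand setting of the counting were not given in the sources used here. Of 54232 identifiers, 54079 matched a symbol, while the remaining 153 took up to 0.0172% of the reads.

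Groups came from the labels. Nothing in the labels says that libraries came from separate animals or cultures, so p-values measure the spread between libraries, which may be technical. No 2 libraries of a group were identical or agreed within sampling noise (61 pairs). For each comparison only the libraries of the 2 groups entered the fit, which used edgeR 4.0.16 (R 4.3.3), TMM scaling, a filter at a minimum count of 10 and the quasi-likelihood test. Differences of cadmium effects came from 1 fit over 6 groups. Benjamini-Hochberg adjustment covered all genes tested. CPM used TMM factors over 30 libraries, and RPKM divided by the exon length of GENCODE M21 (GRCm38). The steps were tested on simulated data. Total counts limit the precision of low genes, and the lowest 6 week value of Ccnb1 rests on 7 reads. Vehicle replicate 6 at 18 weeks had 0 reads of Cdc20, 1 of Aurkb, 2 each of Ccnb2, Plk1, Bub1 and Birc5 and 3 of Ube2c. The lowest 18 week vehicle levels of these genes rest on those reads. This library was the lowest of its group for 11 of the 18 mitotic members.

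The members and the pathway and marker lists were chosen with earlier results of these data known. Values in every library were given for up to 8 members called in a comparison, by smallest p, or the 4 of smallest p where fewer than 4 were called. Mki67, Top2a, Ccnd1, Ccnd2, Ccnd3, Cdk4, Mcm2 and Pcna were always named. From each pathway list, up to 3 called genes per direction could be named, or the 1 of smallest p with none called. Alternatives were DESeq2 1.42.0, RLE scaling, no count filter, acinar markers left out, the replicate number as a block, all 30 libraries in the fit, and leaving out each library or the 3 of lowest depth.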

Additional observations from a re-analysis of the deposited data

Results flagged for a closer look

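Of 138 sets of library values examined (23 members in 6 groups), 7 held 1 library far from the others of its group by Dixon's criterion. Chance alone gives about 1 in 20, so a count of 7 is about what chance gives. Cadmium replicate 3 at 6 weeks stood apart for Top2a (12.4 CPM, the others 6.34 to 6.62 CPM) and Tpx2 (2.49 CPM, the others 1.364 to 1.501 CPM). Ccnb1 was high in vehicle replicate 4 at 6 weeks (0.731 CPM, the next 0.315 CPM) and in vehicle replicate 1 at 18 weeks (2.465 CPM, the next 1.45 CPM). Of the 18 mitotic members, cadmium replicate 3 at 6 weeks was the highest of its group in 16, vehicle replicate 4 at 6 weeks in 15 and vehicle replicate 1 at 18 weeks in 8. Ccnd1 was at 149.6 CPM in cadmium replicate 2 at 6 weeks, with the next library at 128.5 CPM. Cdk4 was at 107.7 CPM in vehicle replicate 3 at 18 weeks, with the next at 93.7 CPM. Foxm1 was at 6.31 CPM in cultured vehicle replicate 2, with the next at 5.03 CPM.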

How the results depend on the processing

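Of 19 calls between vehicle at 18 and 6 weeks, 14 held in all 18 alternatives. Mcm6 lost its call in 17 of them, Tpx2 in 12, Mcm2 in 9, Aurkb in 5 and Aurka in 3. In culture against 6 weeks 30 of 32 calls held in all 16 (Aurka lost its in 6, Mcm4 in 1), and against 18 weeks 32 of 32 in all 18. No called direction reversed. Against 6 weeks the members' median ranged from 1.01 to 1.20 when 1 library was left out, the highest without vehicle replicate 4.

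For cadmium at 18 weeks, edgeR called 0 members, DESeq2 1 (Cenpf) and the fit on all 30 libraries 3. Over all genes these called 75, 753 and 2496, no count filter 140, the fit without acinar markers 46, that without the 3 shallowest libraries 0, and single omissions 0 to 318. For the difference between 18 and 6 weeks the count of members was 0, with 1 by DESeq2, 1 with the replicate block, 2 (Mcm2 and Mcm3) without the 3 shallowest libraries and 0 to 2 with 1 library left out. Over all genes the counts were 382, 1358, 713, 2546 and 0 to 1694, and 192 with no count filter. For the difference of cadmium effects between culture and 18 weeks, the omission of those 3 libraries called 1 member (Mcm3). Over all genes it called 1057 against 4 (DESeq2 161, single omissions 0 to 358). At 6 weeks DESeq2 called 10 genes and edgeR 0, and in culture 7 passed with no count filter against 1. The cause was not tested. In the difference between culture and 6 weeks the median ranged from 0.025 to 0.217 with 1 library left out.

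Near 0, directions were not stable. At 6 weeks Ccnd3 turned to −0.017 with the replicate block and ranged from −0.026 to 0.033 with 1 library left out, Top2a from −0.37 to 0.11 and Ccnd1 from −0.085 to 0.0019. At 18 weeks Ccnd1 ranged from −0.022 to 0.079. In culture the ranges were −0.0087 to 0.0065 for Cdk4, −0.11 to 0.012 for Mki67, −0.079 to 0.00092 for Top2a and −0.047 to 0.0062 for Pcna. Ccnd1 in culture against 18 weeks turned to 0.065 without the 3 shallowest libraries.

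Deviations of same-numbered libraries correlated at −0.0165 to 0.113 at 6 weeks, −0.113 to 0.259 at 18 weeks and 0.0153 to 0.137 in culture. Libraries of unlike number gave −0.18 to 0.169, −0.215 to 0.223 and −0.103 to 0.0836 in the same settings. In culture every same-numbered pair was thus above 0. The labels do not state a pairing, and whether the replicate numbers pair the libraries was not tested. With the replicate block, 4 members rose and 11 fell between 18 and 6 weeks, 28 rose and 3 fell in culture against 6 weeks, and 31 rose and 1 fell against 18 weeks. Cadmium still called 0 members in each setting, while the count over all genes in culture went from 1 to 223 and at 18 weeks from 75 to 1.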
